A study of Homo sapiens with 12 samples.

Results

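HepG2 cells, an established human liver cancer line, were compared in 2 states that differ by 2 treatments. The HGV libraries came from cells given hyperglycaemic medium with 20 mM glucose for 48 h and then 1 mM valproic acid (VPA) for another 12 h. The LG libraries came from cells kept in normoglycaemic medium with 5.5 mM glucose and no VPA. The comparison asks which genes lay near the LG level after both treatments, which lay above or below it, and which lay on the far side of it from the level seen with high glucose alone. All genes with a mean of at least 10 reads over the 6 libraries were members, which took in 16266 of the 16389 genes in the count table. Each group had 3 libraries. Polyadenylated RNA was read from one end of each fragment, and 3 libraries each of high glucose without VPA (HG) and low glucose with VPA (LGV) are shown beside the members where they place a value. The labels do not say that replicates were separate cultures, so p-values measure the spread between these libraries. Whether LG cells were harvested with the HGV cells or 12 h before them is not given, so culture time and treatment cannot be told apart. The comparison does not separate the effect of glucose from that of VPA.

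Valproic acid inhibits class I and IIa histone deacetylases, enzymes that take acetyl groups off histones, and genes that are silent in a tissue often gain transcripts when these enzymes are blocked. In liver cells glucose acts on transcription through the paired factors MondoA or ChREBP and MLX, of which TXNIP and ARRDC4 are classical targets. Shortage of glucose impairs protein glycosylation in the endoplasmic reticulum (ER) and raises ER chaperones such as HSPA5, while complement proteins, clotting factors and most other plasma proteins are made by hepatocytes.

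The LG libraries held 29816124 to 45572694 reads each and the HGV libraries 29798442 to 40218012. Levels are counts scaled to library size (CPM) with edgeR's TMM factors, and fold changes carry their standard error (SE). On the CPM scale 3 reads in a library stood for 0.0713 to 0.112 CPM. That floor allows for counting error and nothing else. The liver label was checked against 8 hepatocyte markers, all of which were measured, with a summed level of 47400 to 52700 CPM in LG and 41300 to 54900 CPM in HGV. Of 5 leukocyte markers 2 were measured (CD14 and LYZ, summed 1070 to 1420 CPM in LG and 1440 to 1550 CPM in HGV), with PTPRC, CD68 and CD3E not among the genes. The endothelial list had 2 of 4 markers (2.3 to 2.99 CPM in LG, 3.83 to 4.85 CPM in HGV) and the stromal list 2 of 6 (37.9 to 58.3 CPM and 26.3 to 32.9 CPM). The cholangiocyte list had 3 of 4 (442 to 492 CPM and 534 to 626 CPM). Neuronal markers, 3 of 5 measured, summed to at most 10.0 CPM in any LG library and to at least 37.8 CPM in every HGV library. Of these SYP was called higher, TUBB3 was undecided and RBFOX3 was not tested, so the sum does not speak for the list. In bulk RNA fewer cells of a kind and less RNA per cell cannot be told apart.

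With VPA on top of high glucose, genes lay above, below and near the LG level. With edgeR's quasi-likelihood test, 8491 of the 16266 genes (52.2%) differed between HGV and LG at a false discovery rate (FDR, Benjamini-Hochberg) of 0.05 or less. Of these, 4543 were higher in HGV (27.9%) and 3948 were lower (24.3%). A gene was called near LG when the 95% interval of its fold change lay wholly within 1.5-fold in both directions, and 3354 genes (20.6%) met this. The count depends on that margin, since 717 genes were near within 1.3-fold and 8512 within 2-fold. The other 4421 genes (27.2%) were undecided, since their intervals were too wide to place them. Intervals reached a median of 0.59 on the log2 scale to either side in undecided genes and 0.32 in near genes. The libraries of the groups did not overlap for 9528 genes (58.6%). The split between higher and lower depended on the scaling, since library sizes alone gave 6004 higher and 2353 lower and moved the median log2 fold change of all genes from 0.02 to 0.25. Values of single genes below are on the TMM scale and should be read against that shift, and counts of list members against the shares of all genes, 27.9% higher, 24.3% lower and 20.6% near. A share close to these is no result about a list.

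Genes higher in HGV were mostly weakly expressed and moved far, and genes lower in HGV were strongly expressed and moved less. The higher genes had a median log2 fold change of 1.22 and a median level of 5.34 CPM, and 1283 of them changed by at least 2 on the log2 scale. The lower genes had a median log2 fold change of -0.74 and a median level of 41.8 CPM, and 131 changed by that much. When genes were put into 5 groups of equal size by their level in the HG libraries, which took no part in the test, 44.2% of the lowest group were higher in HGV and 7.31% lower. In the top group 8.73% were higher and 48.6% lower. With library sizes alone the top group held 18.0% higher and 29.0% lower, so the order of the 2 shares did not turn. Near genes made up 0.0307% of the lowest group and 35.0% of the top group. The filter on the mean of the HGV and LG libraries favours higher calls at low HG levels, since 959 genes had a mean under 10 reads in HG. Among the 15307 others, 33.1% of the lowest group were higher and 9.31% lower, and 8.59% and 49.3% of the top group, a choice made after seeing the data.

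**Figure D1:**
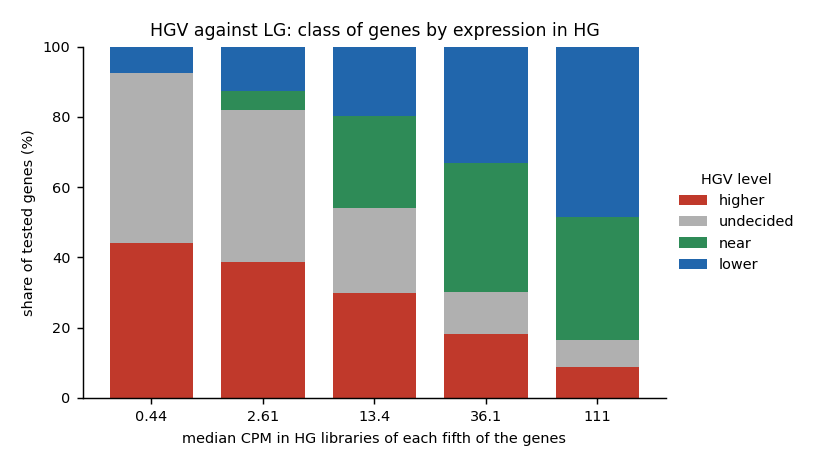
Share of tested genes (%) that were higher, undecided, near or lower in HGV against LG, for 5 groups of equal size by level in the HG libraries (x axis, median CPM of each group). The higher share fell from 44.2% in the lowest group to 8.73% in the top group while the lower share went from 7.31% to 48.6%.

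A set of 116 genes had 3 reads or fewer in every LG library and at least 30 in every HGV library, and 103 of them code for proteins. PHOSPHO1, a phosphatase of mineralising bone and cartilage, had no read in any LG library and 9.14, 12.6 and 10.4 CPM in the HGV libraries. This was at least 122-fold higher, against a floor of 3 reads in each LG library. DPYSL5, a collapsin response mediator protein of growing axons (chromosome 2 from 27070615 to 27173219 of GRCh37), had 1, 3 and 0 reads in LG and 23.5, 23.9 and 21.8 CPM in HGV. Its LGV mean was 7.45 CPM. BAI2, an adhesion G protein-coupled receptor of brain, had 0.0374, 0.0998 and 0.0255 CPM in LG and 13.6, 13.6 and 14.2 CPM in HGV, a log2 fold change of 7.85. For genes with 1 to 3 LG reads in all, only levels are given. C1QL1, a secreted synaptic protein, had 4.32 to 6.61 CPM in HGV, PPP1R1B, the DARPP-32 phosphatase inhibitor of striatal neurons, 7.02 to 8.70 CPM, and the lncRNA RP11-168O16.1 5.06 to 7.20 CPM. These genes were chosen among those whose HGV and LG libraries did not overlap, so standing apart from LG was fixed by the choice. Each had a mean under 10 reads in LG and was tested only through HGV, where it had to be higher. TMEM63C, PPP1R16B, ELOVL3 (an elongase of very long fatty acids), EPHB2 (an ephrin receptor) and SEPT3 (a neuronal septin) followed, with log2 fold changes of 6.86 to 7.66 from LG levels of at most 0.187 CPM in any library. They too were tested only through HGV. Exons of TMEM63C overlap those of CIPC on the same strand, where reads cannot be split with certainty.

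No gene fell from at least 30 reads in every LG library to 3 or fewer in every HGV library. FCGBP, an IgG-binding mucin-like protein, had 60.7, 56.0 and 36.5 CPM in LG and 3.37, 3.04 and 2.91 CPM in HGV, a log2 fold change of -4.03 ± 0.20 (SE, FDR 4.18e-13). SLC17A2, a sodium-phosphate cotransporter family member (chromosome 6 from 25912982 to 25930919), had 226, 188 and 145 CPM in LG and 14.9, 12.3 and 10.3 CPM in HGV, a log2 fold change of -3.89. BRPF3, a scaffold of histone acetyltransferase complexes, had 272, 303 and 182 CPM in LG and 27.5, 22.9 and 24.7 CPM in HGV, a log2 fold change of -3.32. Lack of overlap between the groups was a condition of choice for these genes too. FCGBP and SLC17A2 were also lower in HG than in LG, by log2 fold changes of -1.57 and -1.33, and BRPF3 by -0.69. The choice also asked for a mean of at least 1 log2 CPM. The remaining genes with the strongest falls under these conditions were KLHDC7B (-3.70), ANGPTL1 (-3.58), the glycine transporter SLC6A9 (-3.47), the stress-inducible regulator NUPR1 (-3.43), the pseudogene NONOP2 (-3.43), the mitochondrial isoleucine tRNA MT-TI (-3.20), the lncRNA RP11-439L18.3 (-3.19), the stress-responsive factor ATF5 (-3.14) and the aldo-keto reductase AKR1B10 (-3.11). NONOP2 is a processed pseudogene whose reads may belong to its parent gene, and the exons of MT-TI overlap those of MT-TQ on the other strand.

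ER chaperones ended far below the LG level. Of the 20 chaperones and co-chaperones listed, 19 were lower in HGV and 1 was near, against 24.3% lower over all genes. Their median log2 fold change was -1.63, and in HG against LG, which uses the same LG libraries, it was -1.58. HSPA5 (BiP, the main Hsp70 of the ER, chromosome 9 from 127997132 to 128003661 of GRCh37) had 5862, 5517 and 4247 CPM in LG and 1221, 1106 and 950 CPM in HGV. The lowest LG library lay far above the highest HGV library. The log2 fold change was -2.24 ± 0.17 (SE, FDR 2.3e-10). MANF, a secreted ER stress-inducible protein, had 355, 325 and 246 CPM in LG and 51.8, 55.4 and 46.1 CPM in HGV. MANF was the member with the strongest fall, a log2 fold change of -2.58 ± 0.16 (SE, FDR 7.8e-12). HYOU1, the nucleotide exchange factor of BiP, followed (-2.46), with 2636, 2395 and 1471 CPM in LG and 438, 403 and 330 CPM in HGV. CALR, the calcium-binding lectin calreticulin, had 3895, 3927 and 2512 CPM in LG and 814, 938 and 776 CPM in HGV (-2.02). LG replicate 3 was the lowest LG library for each of these 4 genes and still lay above all HGV libraries. The Hsp90 of the ER, HSP90B1 (-1.69), the lectin CANX (-1.45) and the disulphide isomerases PDIA4 (-1.70), PDIA3 (-1.58), PDIA6 (-1.26) and P4HB (-0.78) were also lower.

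Members of this list differed in how HGV compared with HG. DNAJB11, an Hsp40 partner of BiP, had 416, 419 and 282 CPM in LG, 88.3, 76.8 and 85.5 CPM in HG and 160, 136 and 142 CPM in HGV. It lay between HG and LG, with a log2 fold change of -2.14 in HG and -1.34 in HGV against LG. It shares exon sequence with TBCCD1, which runs the other way. SDF2L1, a cofactor of DNAJB11, was likewise less far below LG in HGV (-2.03) than in HG (-2.85, given as values of separate fits). SDF2, its paralogue that is not stress-inducible, was the near member, at 0.05.

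The ER stress element is a promoter motif bound by ATF6 and NF-Y in classical chaperone genes. It was searched as CCAAT, 9 bases of any kind and CCACG, on both strands, in 300 bases of RefSeq promoters (250 before and 50 after the start, GRCh38.p14). It was found in 5 of the 19 chaperone promoters matched (HSPA5, HSP90B1, CALR, CANX and CRELD2) and in 27 of 35116 promoters overall (0.0769%). The E box CACGTG, which ChREBP and many other factors bind, was searched in the same way in the MondoA and ChREBP genes. That list holds the factors and MLX besides their targets. The E box was found in 3 of 9 promoters matched (ARRDC4, PKLR and MLX) and in 2548 of all promoters (7.26%). The 2 motifs can share letters, since CCACG followed by TG holds CACGTG. A match describes the letters in this window and is not evidence that the site is bound. The 250 bases before the start are shown for the most abundant chaperones with a match and for ARRDC4, which was chosen after its values were seen in place of MLX, a near gene, with the motif in capitals. Positions are chr9:125241344-125241593 on the minus strand for HSPA5, chr12:103930160-103930409 on the plus strand for HSP90B1 and chr15:97960453-97960702 on the plus strand for ARRDC4.
HSPA5: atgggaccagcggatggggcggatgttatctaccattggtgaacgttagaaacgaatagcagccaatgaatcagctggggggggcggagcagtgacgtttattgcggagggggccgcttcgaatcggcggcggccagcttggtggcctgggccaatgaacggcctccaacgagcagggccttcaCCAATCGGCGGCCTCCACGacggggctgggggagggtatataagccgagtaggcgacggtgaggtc
HSP90B1: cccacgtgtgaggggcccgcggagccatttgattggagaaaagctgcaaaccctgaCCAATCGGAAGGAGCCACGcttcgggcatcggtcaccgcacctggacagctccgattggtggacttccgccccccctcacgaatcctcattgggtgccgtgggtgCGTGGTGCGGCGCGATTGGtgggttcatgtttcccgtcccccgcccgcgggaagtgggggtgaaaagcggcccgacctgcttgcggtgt
ARRDC4: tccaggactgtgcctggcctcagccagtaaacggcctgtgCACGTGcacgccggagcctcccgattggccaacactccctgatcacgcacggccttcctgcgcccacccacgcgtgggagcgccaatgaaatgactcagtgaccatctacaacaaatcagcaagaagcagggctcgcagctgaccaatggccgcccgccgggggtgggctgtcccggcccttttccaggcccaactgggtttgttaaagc

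Sensors and downstream arms of the unfolded protein response were mostly lower. Of 16 sensors and regulators, 11 were lower, 1 higher, 3 near and 1 undecided (median -0.62), against 24.3% lower over all genes. TRIB3, a pseudokinase induced by ATF4, had 1047, 896 and 693 CPM in LG and 222, 255 and 240 CPM in HGV (-1.87, FDR 1.64e-09). DDIT3, the stress factor CHOP (-1.85), and HERPUD1, a ubiquitin-domain protein of the ER membrane (-1.63), followed, as did the sensors EIF2AK3 (-0.90), ATF6 (-0.65) and ERN1 (-0.57). The call of ERN1 was lost with library sizes alone (-0.33) and without LG replicate 1 (-0.44). CREB3L3, a liver-enriched factor of this family, was the higher member, at 0.93. CREB3L2, which was lower in HG, was the near member with the highest level.

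Of 19 measured genes for ER-associated degradation, in which misfolded proteins are retrieved and degraded, 11 were lower, 7 near and 1 undecided (median -0.63). DERL3 was not among the genes tested. HERPUD1, UBE2J1 (-1.51) and VIMP (-1.50) fell most, whereas NPLOC4 was the near member with the highest level. With library sizes alone 4 of these 19 genes were higher and 11 lower. Of 20 ATF4 targets for amino acid supply and tRNA charging, 12 were lower, 2 higher, 5 near and 1 undecided (median -0.58). WARS, a tRNA synthetase, had 414, 312 and 257 CPM in LG and 84.7, 95.4 and 72.6 CPM in HGV, a log2 fold change of -1.95. SLC3A2, the heavy chain of amino acid exchangers, fell by 1.91 on the log2 scale. CHAC1, which degrades glutathione, went the other way, from 2.17, 1.65 and 1.84 CPM to 6.90, 9.37 and 6.23 CPM (2.01, FDR 2.65e-07), and so did ASNS, asparagine synthetase (0.61). PSAT1, of serine synthesis, was near at 0.23 and was higher with library sizes alone.

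Translation factors were also mostly lower, with 12 of 21 lower, 2 higher, 5 near and 2 undecided (median -0.59), against 24.3% lower over all genes. EEF1G was not tested. EIF3A (-1.48), EIF5 (-1.38) and EIF4B (-1.29), which act in initiation, were the lower members with the strongest change. EEF1A2, the elongation factor form of neurons and muscle, stood out, with 1.94, 1.80 and 1.56 CPM in LG and 33.4, 40.3 and 29.6 CPM in HGV. It rose by 4.30 on the log2 scale (FDR 1.55e-13), while the ubiquitous EEF1A1 fell by 0.59. EIF4A2 was the near member with the highest level.

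The glucose-sensing factors and their targets did not all end on one side of LG. Of 16 MondoA and ChREBP genes, 8 were higher, 4 lower, 2 near and 2 undecided (median 0.34, and 0.68 in HG against LG). The 4 lower genes include the factors MLXIP and MLXIPL themselves, and the 2 near genes include their partner MLX. Library sizes alone gave 8 higher and 2 lower. TXNIP, an arrestin-domain protein that binds thioredoxin and limits glucose uptake, had 6.58, 6.21 and 6.31 CPM in LG and 362, 344 and 344 CPM in HGV. The HG libraries held 107, 389 and 277 CPM and the LGV mean was 9.78 CPM. The HGV libraries of TXNIP lay within the range of the HG libraries, and the log2 fold change against LG was 5.79 (SE 0.17, FDR 4e-17). ARRDC4, its arrestin relative (chromosome 15 from 98503933 to 98517063), had 1.01, 1.17 and 1.25 CPM in LG, 5.23, 15.4 and 10.9 CPM in HG and 49.1, 37.6 and 45.2 CPM in HGV. All HGV libraries of ARRDC4 lay above all HG libraries, and against LG the log2 fold change was 5.25 ± 0.20 (SE, FDR 9.4e-15). KLF10, a glucose-responsive zinc finger repressor, had 18.8, 20.3 and 17.6 CPM in LG and 99.0, 90.3 and 92.5 CPM in HGV, a log2 fold change of 2.32.

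Metabolic targets of ChREBP split. The fructokinase KHK (1.19), liver pyruvate kinase PKLR (0.95), ACLY, which makes cytosolic acetyl-CoA (0.78), and G6PC, which releases free glucose (0.42), were higher in HGV. The fatty acid synthase FASN (-0.69), ACACA, which makes malonyl-CoA (-0.63), and the factors MLXIP or MondoA (-0.51) and MLXIPL or ChREBP (-0.42) were lower. The calls of MLXIP (-0.27) and MLXIPL (-0.19) were lost with library sizes alone, that of MLXIPL also without HGV replicate 2 (-0.30) or LG replicate 1 (-0.34), and that of G6PC without HGV replicate 2 (0.36) or 3 (0.41) or LG replicate 3 (0.19) and with the factors of DESeq2 (0.39). MLX, their common partner, and the triokinase DAK were near.

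**Figure D2:**
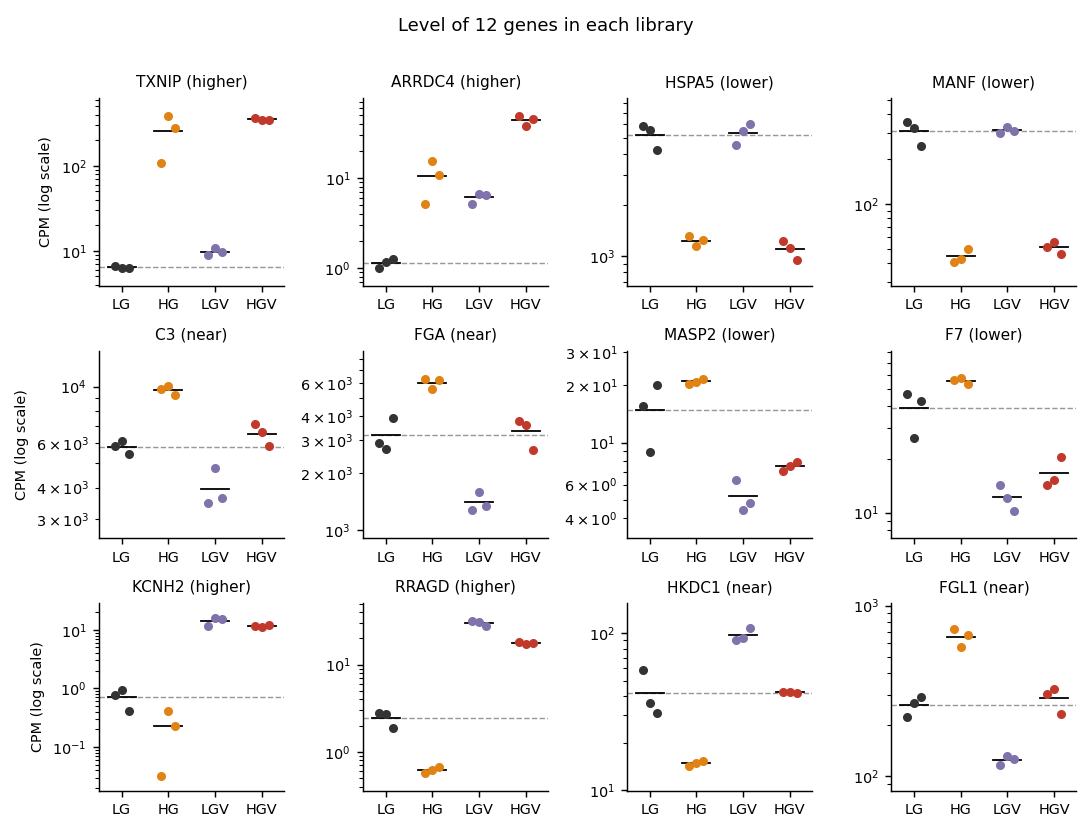
Level of 12 genes in each library (y axis, CPM on a log scale) for the 4 groups on the x axis; points are libraries, bars are group means and the dashed line is the LG mean. TXNIP and ARRDC4 lay above LG in HGV, HSPA5 and MANF below it, C3, FGA, HKDC1 and FGL1 near it, and MASP2, F7, KCNH2 and RRAGD on the other side of LG from their HG mean.

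Of 20 glucose uptake and glycolysis genes, 5 were higher, 5 lower, 6 near and 4 undecided, shares close to those over all genes. The list median was -0.13 and turned positive with library sizes alone, so no direction is given. SLC2A1, the basal glucose transporter GLUT1, had 942, 896 and 830 CPM in LG, 385, 352 and 399 CPM in HG and 485, 602 and 467 CPM in HGV. It lay between them in HGV, with a log2 fold change of -0.77 ± 0.15 (SE, FDR 0.000146) against -1.21 in HG. HK1, hexokinase 1, which most tissues but not adult hepatocytes rely on, had 6.06, 6.64 and 5.85 CPM in LG and 42.4, 45.6 and 36.3 CPM in HGV. It rose by 2.75 although it was lower in HG than in LG (-1.10). SLC2A3, the neuronal transporter GLUT3, rose by 2.34 from 14.5, 13.6 and 49.4 CPM to 118, 126 and 149 CPM, and ALDOC, the brain aldolase, by 1.54. GAPDH (-0.53) and ENO1 (-0.52), abundant enzymes of lower glycolysis, were among the lower members, where ENO1 lost the call with library sizes alone (-0.30), and PKM was near.

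Cholesterol synthesis stayed above LG. Of 22 enzymes of the pathway, 15 were higher, 1 lower, 3 near and 3 undecided, against 27.9% higher over all genes, with a median of 0.74 (0.59 in HG against LG). MSMO1, the sterol C4 demethylase, had 31.9, 30.4 and 43.2 CPM in LG and 118, 134 and 129 CPM in HGV, with no overlap. Its log2 fold change was 1.86 ± 0.15 (SE, FDR 1.06e-09). Mevalonate kinase MVK had 14.7, 10.3 and 12.6 CPM in LG and 35.3, 35.9 and 36.8 CPM in HGV (1.53). The squalene epoxidase SQLE was also higher (1.23). ACAT2, a thiolase at the entry of the pathway, was the lower member (-0.40), a call lost with library sizes alone (-0.17), with upper quartile factors (-0.25) and without HGV replicate 1 (-0.34) or LG replicate 3 (-0.34).

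The factors that control this pathway did not all move with it. Of 10 genes for SREBP control and LDL uptake, 5 were higher, 3 lower, 1 near and 1 undecided (median 0.30), and INSIG1 was not tested. SREBF1, which drives lipid synthesis, had 77.6, 67.6 and 67.7 CPM in LG and 35.4, 31.1 and 39.9 CPM in HGV (-0.99, FDR 4.29e-06), and INSIG2, an ER anchor of the SREBP escort protein, fell by 0.96. SREBF2, the factor of the sterol genes, rose by 0.42, a call lost without HGV replicate 1 (0.39). MYLIP, a ubiquitin ligase, was near.

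Of 20 genes for fatty acid synthesis and lipid storage, 10 were higher, 4 lower, 4 near and 2 undecided (median 0.40). CIDEC, a lipid droplet fusion protein, had 2.13, 1.15 and 1.81 CPM in LG and 5.67, 7.30 and 9.15 CPM in HGV (2.14), and AGPAT2, an acyltransferase of triglyceride synthesis, rose by 2.10. G0S2, an inhibitor of triglyceride lipase, had 2 reads in LG in all and 0.736, 0.618 and 0.853 CPM in HGV. It was tested only through HGV, where it had to be higher. Of the other 19 genes 9 were higher and 4 lower (median 0.40). GPAM, which starts glycerolipid synthesis, was lower (-0.81), and LPIN1 was near. Of 19 genes for fatty acid oxidation and ketone bodies, 6 were higher, 4 lower, 6 near and 3 undecided (median 0.21), and with library sizes alone 11 were higher and 3 lower. A member with a mean under 10 reads in LG was among the higher ones. Of the other 18 genes 5 were higher and 4 lower (median 0.17). PDK4, which shuts pyruvate out of oxidation, was higher (2.18). BDH1, which interconverts ketone bodies, had 76.7, 71.9 and 65.8 CPM in LG and 17.2, 19.7 and 19.9 CPM in HGV, a log2 fold change of -1.91. HADHA was the near member with the highest level.

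Complement activation genes lay on both sides of LG and near it. Of 17 activation genes measured, 6 were higher, 2 lower, 6 near and 3 undecided, against 27.9%, 24.3% and 20.6% over all genes. The split depended on the scaling, with 10 higher, 2 lower and 2 near (median 0.41) by library sizes alone and 8 higher, 2 lower and 4 near (0.34) by upper quartile factors. The median of the TMM fit was 0.18 in HGV against LG and 0.84 in HG against LG, comparisons that share the LG libraries, and C1QA, C1QB, C1QC, C9, CFP and FCN1 to FCN3 were not tested. C3, on which all activation routes converge (chromosome 19 from 6677715 to 6730573), had 5854, 6101 and 5426 CPM in LG and 7101, 6625 and 5835 CPM in HGV. The groups overlapped, and the log2 fold change was 0.18 with a 95% interval from -0.14 to 0.50. In HG it was 0.77. The nearness of C3 rested on the scaling, since library sizes alone gave 0.41 and an FDR of 0.0102, and it was lost without HGV replicate 3 (0.26), LG replicate 1 (0.18) or LG replicate 2 (0.22), where the interval passed 1.5-fold. CFB, the protease of the alternative pathway, was also near (0.22, and 1.11 in HG), although its exons overlap those of C2. With library sizes alone CFB was higher (0.45), and leaving out HGV replicate 1 or 3 or LG replicate 1 or 3 took it out of the near genes at 0.22 to 0.34. C4A and C4B, near-identical copies between which reads are uncertain, were near as well. C4B was higher with library sizes alone (0.36) and not near without HGV replicate 3 (0.245).

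Away from LG on the high side lay the C1 proteases C1R (1.85) and C1S (1.03), CFD or factor D (2.25), and the membrane attack proteins C6 (1.09), C8B (0.89) and C5 (0.42). Exons of C1R overlap those of C1RL on the same strand, where reads cannot be split with certainty. The call of C5 was lost without HGV replicate 1 (0.39) or 3 (0.39) or LG replicate 1 (0.35) or 3 (0.36). Beyond LG on the low side lay MASP2, the protease of the lectin pathway (chromosome 1 from 11082066 to 11107296), with 15.6, 8.96 and 20.1 CPM in LG and 7.11, 7.54 and 7.85 CPM in HGV. All HGV libraries were below all LG libraries, although LG replicate 2 was close, and the log2 fold change was -0.98 ± 0.23 (SE, FDR 0.000932). In HG MASP2 was at 0.52 against LG with an FDR of 0.0767, so it was not called there. Its exons overlap those of TARDBP on the other strand. MASP1 was lower too (-0.70).

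Complement regulators numbered 9 measured, with 3 higher, 2 lower and 4 near (median -0.03, positive with library sizes alone). SERPING1, the C1 inhibitor (chromosome 11 from 57364860 to 57386644), had 12.8, 15.5 and 15.3 CPM in LG and 73.7, 75.2 and 44.1 CPM in HGV. It rose by 2.15 (SE 0.18, FDR 1.76e-09), with every HGV library far above LG. C4BPB, a chain of the C4b-binding protein, had 102, 104 and 98.6 CPM in LG and 27.1, 26.6 and 25.7 CPM in HGV and fell by 1.93. CD55, a membrane inhibitor of convertases, fell by 0.55, a call lost with library sizes alone, and VTN or vitronectin was near.

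Of 16 clotting factors measured, 6 were higher, 4 lower, 1 near and 5 undecided (median 0.37), against 27.9% higher and 24.3% lower over all genes, and F9 was not tested. Library sizes alone gave 9 higher and 2 lower (median 0.60). F7, which starts clotting with tissue factor (chromosome 13 from 113760102 to 113774999), had 46.9, 26.4 and 42.8 CPM in LG and 14.4, 15.3 and 20.6 CPM in HGV. The groups stood apart, and F7 fell by 1.20 (SE 0.19, FDR 1.73e-05) whereas in HG it was above LG (0.54). F11 (-0.81), prothrombin F2 (-0.48) and the fibrinogen chain FGG (-0.46) were lower too. Of the other fibrinogen chains FGB was called higher (0.37) and FGA near, but that the chains differ was not tested. The calls of F2 (-0.25) and FGG (-0.24) were lost with library sizes alone, and that of FGG also without HGV replicate 2 (-0.46) or 3 (-0.43) or LG replicate 3 (-0.20). FGB lost its call with the factors of DESeq2 (0.35) and without HGV replicate 1 (0.33) or 3 (0.35) or LG replicate 1 (0.30) or 2 (0.33). FGA had 2911, 2695 and 3918 CPM in LG and 3797, 3618 and 2650 CPM in HGV, with overlap, at 0.09 against LG and 0.94 in HG. FGA was no longer near without HGV replicate 3 (0.24) or LG replicate 3 (0.27), nor with library sizes alone (0.31). The contact factors KLKB1 (2.10), from 0.673, 0.724 and 0.893 CPM to 2.64, 3.31 and 3.94 CPM, and KNG1 (1.38) were the higher members with the strongest change.

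Of 15 anticoagulant and fibrinolysis genes, 3 were higher, 6 lower, 3 near and 3 undecided (median -0.12, positive with library sizes alone, where 5 were higher and 5 lower). SERPINA10, which inhibits factor Xa, had 20.6, 16.2 and 29.6 CPM in LG and 6.99, 5.16 and 5.62 CPM in HGV (-1.90). SERPINC1 or antithrombin fell by 1.14 and PROC or protein C by 0.57. Plasminogen PLG was higher (0.96) and TFPI near.

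**Figure D3:**
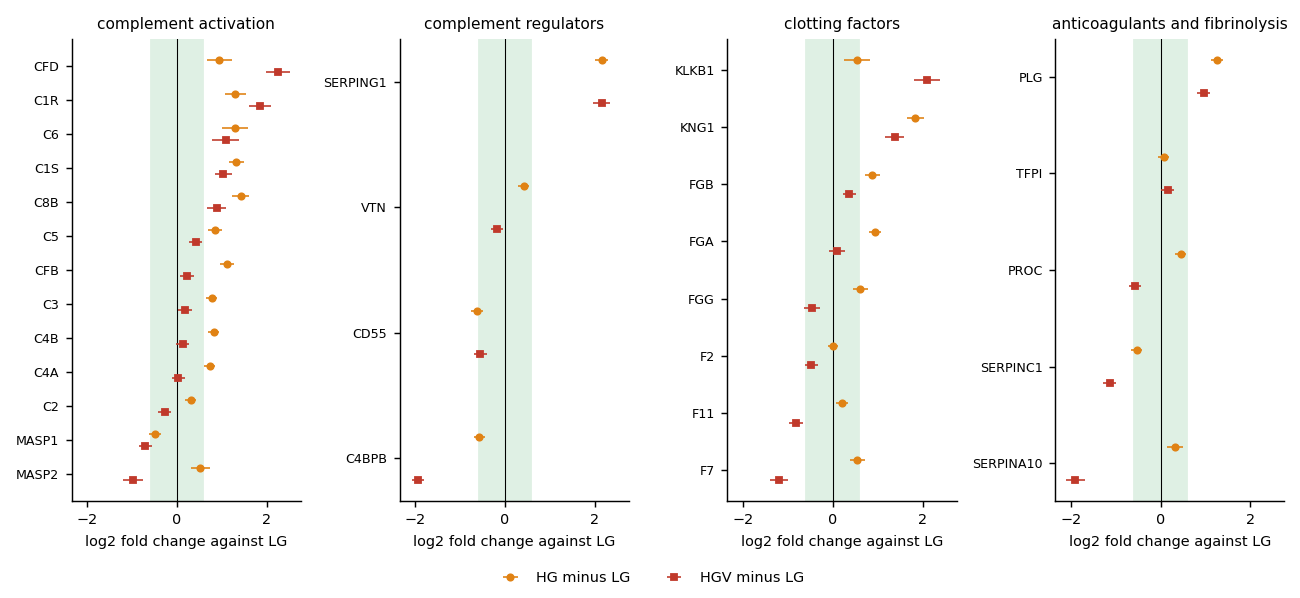
Log2 fold change against LG (x axis) of the complement and clotting genes named in the text in HG (orange circles) and in HGV (red squares), with bars of 1 standard error; the green band marks 1.5-fold either way. C3, CFB and FGA moved from the right of the band in HG into it in HGV, MASP2 and F7 lay to the left of it in HGV, and SERPING1 stayed near 2.15.

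Of 22 acute phase and carrier proteins, 2 were higher, 4 lower, 8 near and 8 undecided, and with library sizes alone 5 higher and 4 lower. The sign of the median turned with the scaling. ORM1 had 377, 411 and 323 CPM in LG and 76.0, 83.6 and 68.1 CPM in HGV (-2.28), and ORM2 had a log2 fold change of -2.20, but these genes are near-identical copies and the split of reads between them is uncertain. AMBP (-0.82) and ITIH2 (-0.68) fell as well. Haptoglobin HP was undecided at 0.03, with 71.1, 75.5 and 237 CPM in LG and 144, 182 and 64.8 CPM in HGV, since both groups spread widely. It stood 2.12 above LG in HG. ALB was near (-0.01).

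Of 13 apolipoproteins and related genes, 2 were higher, 6 lower, 1 near and 4 undecided (median -0.36), and with library sizes alone 4 were higher and 5 lower. APOA2, a major protein of HDL, had 1180, 855 and 1119 CPM in LG and 293, 326 and 426 CPM in HGV (-1.58). APOF (-1.66) and APOC1 (-1.10) were lower, APOC3, an inhibitor of lipoprotein lipase, was higher at 0.66, and APOM was near. MTTP, which loads lipid onto APOB, rose by 0.55. APOC4 and LPA were not tested.

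Of 23 hepatocyte transcription factors, 3 were higher, 11 lower, 6 near and 3 undecided (median -0.36). With library sizes alone 4 were higher, 6 lower and 11 near (median -0.13). NR1H4, the bile acid receptor FXR, had 89.5, 92.8 and 90.7 CPM in LG and 17.5, 18.3 and 21.7 CPM in HGV, a log2 fold change of -2.24 ± 0.15 (SE, FDR 2.12e-11). CEBPD (-1.30) and HNF4A (-0.49, a call lost with library sizes alone at -0.26) were lower, GATA6 was higher (0.91) and CEBPB near. Of 18 drug and bile acid enzymes, 11 were lower, 2 higher, 2 near and 3 undecided (median -0.62). CYP2W1 had 64.3, 40.4 and 60.6 CPM in LG and 11.6, 10.4 and 11.5 CPM in HGV, at -2.29 in HGV and 0.62 in HG, and CYP7A1, the rate-limiting enzyme of bile acid synthesis, fell by 1.88. The fetal enzyme CYP3A7 fell by 2.42, with the caution that CYP3A genes share much of their sequence. CYP2E1, which oxidises ethanol, rose by 2.51 but only to 1.17, 1.26 and 1.32 CPM, and CYP2B6, also at low level, by 2.50. Both had a mean under 10 reads in LG and were tested only through HGV, where they had to be higher. Of the other 16 enzymes 0 were higher and 11 lower (median -1.04). UGT2B10 was near.

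Voltage-gated ion channels, neuronal cytoskeleton genes and synaptic genes were the lists with the highest medians among their tested members. Members at or near silence in LG were tested only if other groups lifted their reads, so the shares below do not speak for all members listed. Of 29 voltage-gated channel genes listed 20 were tested, and 17 of these were higher, 1 near and 2 undecided. Of these 20, 8 had a mean under 10 reads in LG and passed through HGV, where they had to be higher. Of the other 12, 9 were higher, 1 near and 2 undecided (median 1.55), against 27.9% higher over all genes. The median over the 20 was 2.75, also with KCNS3 at its bound, against 0.13 for HG against LG. KCNH2, the hERG potassium channel of heart (chromosome 7 from 150642049 to 150675409), had 0.785, 0.923 and 0.408 CPM in LG, 0.0317, 0.419 and 0.224 CPM in HG and 11.8, 11.3 and 12.2 CPM in HGV. LGV was at a mean of 14.3 CPM. KCNH2 rose by 4.07 against LG, on the other side from HG (-1.58). KCNS3 had no LG read and 2.12, 3.54 and 2.00 CPM in HGV, at least 29.1-fold higher against 3 reads in each LG library. The calcium channel CACNA1G (5.73), the muscle sodium channel SCN4A (5.70) and the potassium channel KCNC1 (5.20) were among the others.

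Of 24 synaptic vesicle and release genes listed, 16 were tested, of which 13 were higher, 2 lower and 1 undecided (median 1.81). Of the 14 with a mean of at least 10 reads in LG, 11 were higher (median 1.66). SNPH, which anchors mitochondria in axons, had 0.0374, 0.025 and 0.102 CPM in LG and 5.18, 7.01 and 5.68 CPM in HGV (6.64). It has exons in common with RAD21L1 on the same strand, so its reads are uncertain. SYP, the vesicle marker synaptophysin, had 6.47, 5.14 and 6.69 CPM in LG and 35.4, 33.9 and 46.8 CPM in HGV (2.67). The calcium sensor SYT11 was higher too (3.78). CPLX2, which clamps vesicle fusion, went the other way, from 65.7, 52.9 and 125 CPM to 19.5, 18.8 and 22.2 CPM (-2.01).

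Of 25 cytoskeleton and growth cone genes listed, 18 were tested, of which 13 were higher, 1 lower, 2 near and 2 undecided (median 2.54). Of the 13 with a mean of at least 10 reads in LG, 8 were higher (median 1.84). KIF5C, a neuronal kinesin, had 0.823, 0.524 and 0.664 CPM in LG and 34.0, 22.0 and 28.4 CPM in HGV (5.42), and TUBB4A, a brain tubulin, had 4 LG reads in all and 7.97, 6.63 and 7.59 CPM in HGV. MAPT or tau rose by 2.68, from 12.1, 10.8 and 10.4 CPM to 70.7, 76.3 and 65.1 CPM. DPYSL2, relative of DPYSL5, was near, and TUBB3, often used as a neuronal marker, was undecided at 0.27. Of 21 neurotransmitter receptors listed, 12 were tested, of which 7 were higher, 2 lower, 1 near and 2 undecided (median 0.66). Of the 11 with at least that LG mean, 6 were higher (median 0.63). GABBR1, a GABA-B receptor subunit, had 0.15, 0.20 and 0.102 CPM in LG and 18.2, 11.8 and 18.3 CPM in HGV (6.71), and the glutamate receptor subunit GRIN1 rose by 4.32. GABBR1 has exons in common with UBD on the same strand, so its reads are uncertain. The serotonin receptor HTR7 fell by 2.04, and P2RX4 was near.

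The deacetylase genes themselves lay from -0.68 to 0.53 against LG on the log2 scale. Of 10 class I, II and IV genes tested, 3 were higher, 4 lower and 3 near (median 0.05), and with library sizes alone 5 were higher and 1 lower. HDAC9 was not tested. HDAC1 had 192, 225 and 162 CPM in LG and 250, 282 and 237 CPM in HGV, without overlap (0.42), and HDAC3 (0.51) and HDAC11 (0.53) were also higher. The call of HDAC1 was lost without HGV replicate 2 (0.35) or LG replicate 1 (0.41) or 3 (0.31). HDAC10 (-0.68), HDAC7 (-0.67) and HDAC5 (-0.55) were lower, of which HDAC10 and HDAC5 were not called with library sizes alone. HDAC10 was also not called without HGV replicate 1 (-0.69) or 3 (-0.67) or LG replicate 1 (-0.64). HDAC2 was near (0.14) but was higher with library sizes alone (0.37). Of 14 histone variant genes, 6 were higher, 1 lower, 3 near and 4 undecided (median 0.20). H1FX (1.28) and H2AFJ (1.27) rose most, and the linker histone H1F0, abundant in resting cells, had 1583, 1442 and 1584 CPM in LG and 2564, 2634 and 2421 CPM in HGV (0.73). The macroH2A gene H2AFY2 fell by 0.83 and H2AFZ was near.

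DNA replication genes were mostly higher in HGV. Of 29, 22 were higher, 2 lower, 1 near and 4 undecided (median 0.72), against 27.9% higher over all genes. GINS2, part of the replicative helicase, had 5.20, 4.97 and 10.2 CPM in LG and 18.9, 29.2 and 27.3 CPM in HGV (1.89). GINS4 (1.87), POLA2 (1.79) and the clamp PCNA (1.10) were higher as well. TYMS, which makes thymidylate, was the exception with the strongest fall, from 28.4, 43.0 and 43.0 CPM to 15.4, 21.9 and 15.9 CPM (-1.10). ORC6 was near. Of 25 mitosis genes, 10 were higher, 3 lower, 5 near and 7 undecided (median 0.34), and with library sizes alone 16 were higher and 1 lower. CDK1, the mitotic kinase, had 6.99, 14.0 and 14.2 CPM in LG and 27.3, 33.2 and 36.0 CPM in HGV (1.45), with KIF11 (1.07) and CENPE (1.02) beside it. AURKA was lower (-0.63) and CDC20 near.

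Of 9 cell cycle inhibitors, 3 were higher, 3 near and 3 undecided (median 0.41), and with library sizes alone 6 were higher and 3 near. CDKN2D had 5.57, 5.51 and 3.65 CPM in LG and 15.5 to 16.3 CPM in HGV (1.71), and CDKN2C was higher too (1.14). RB1 was higher at 0.44, a call lost without HGV replicate 1 or 3 and without LG replicate 1 or 3. CDKN1A or p21, a gene that deacetylase inhibitors raise in many cell lines, was near, with 183, 264 and 108 CPM in LG and 177, 194 and 142 CPM in HGV. Its nearness was lost without LG replicate 1 (-0.12), 2 (0.24) or 3 (-0.38) and without HGV replicate 2 (-0.21).

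Antioxidant genes were more often lower than higher, and metal genes showed no common place. Of 19 antioxidant genes of the NRF2 programme, 2 were higher, 10 lower, 6 near and 1 undecided (median -0.34), against 24.3% lower over all genes. With library sizes alone 3 were higher and 8 lower. AKR1B10, given above, and OSGIN1 (-1.77) and AKR1C1 (-1.67) were lower, where AKR1C1 and AKR1C2 are close copies. TKT, of the pentose phosphate pathway, was near. Of 12 metallothionein and zinc transporter genes, 5 were higher, 4 lower and 3 near (median 0.06). MT1A rose by 1.55, SLC39A14 fell by 1.59 and MT1E was near, but metallothionein 1 genes are close copies whose reads are uncertain, and MT1H, MT1L and MT1M were not tested.

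Of 19 NF-kB and immediate early genes, 7 were higher, 6 lower, 3 near and 3 undecided (median 0.18). NFKB1 had 74.7, 90.7 and 84.0 CPM in LG and 27.1, 26.8 and 24.5 CPM in HGV (-1.66), and its inhibitor NFKBIA fell by 1.48. BIRC3, a target of the pathway that blocks caspases (1.96), FOS (1.09), EGR1 (1.07) and the chemokine CCL20 (1.13) were higher, and IER2 was near. Of 19 extracellular matrix and integrin genes, 5 were higher, 4 lower, 9 near and 1 undecided (median -0.06, with a positive median when library sizes alone were used, where 7 were higher and 1 lower). ITGA5 (3.37), COL1A1 (3.19) and ITGA3 (3.09) rose from low levels, COL1A1 from 0.374, 0.125 and 0.179 CPM to 2.64, 1.24 and 2.03 CPM. COL1A1 had a mean under 10 reads in LG and was tested only through HGV, where it had to be higher. Of the other 18 genes 4 were higher and 4 lower (median -0.08). FN1, fibronectin, was lower (-0.54, a call lost with library sizes alone and without HGV replicate 2 or 3 or LG replicate 1 or 2, at -0.30 to -0.52), as was ITGB5 (-1.30), and ITGB1 was near.

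Respiratory chain genes of the 2 genomes were placed differently by the same fit. Of 13 encoded in mitochondrial DNA, 10 were near, 1 higher, 1 lower and 1 undecided (median -0.06, positive with library sizes alone, where 4 were higher). Mitochondrial genes took 5.7% to 6.28% of the reads in LG and 7.95% to 8.91% in HGV. MT-CO1, the catalytic subunit of cytochrome oxidase, had 9592, 10157 and 9217 CPM in LG and 10624, 10765 and 10594 CPM in HGV and was near (0.15), MT-CO3 was higher (0.55) and MT-ND1 lower (-0.44). The call of MT-ND1 was lost with library sizes alone and without LG replicate 1 or 2 or HGV replicate 3. Of 29 nuclear genes, 15 were lower, 1 higher, 7 near and 6 undecided (median -0.38), but with library sizes alone 5 were lower, 6 higher and 15 near. UQCRFS1 (-0.76), NDUFA1 (-0.69) and NDUFA9 (-0.64) were lower, a call that NDUFA9 lost with library sizes alone, NDUFV1 was higher (0.44) and NDUFA4 was near.

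**Figure D4:**
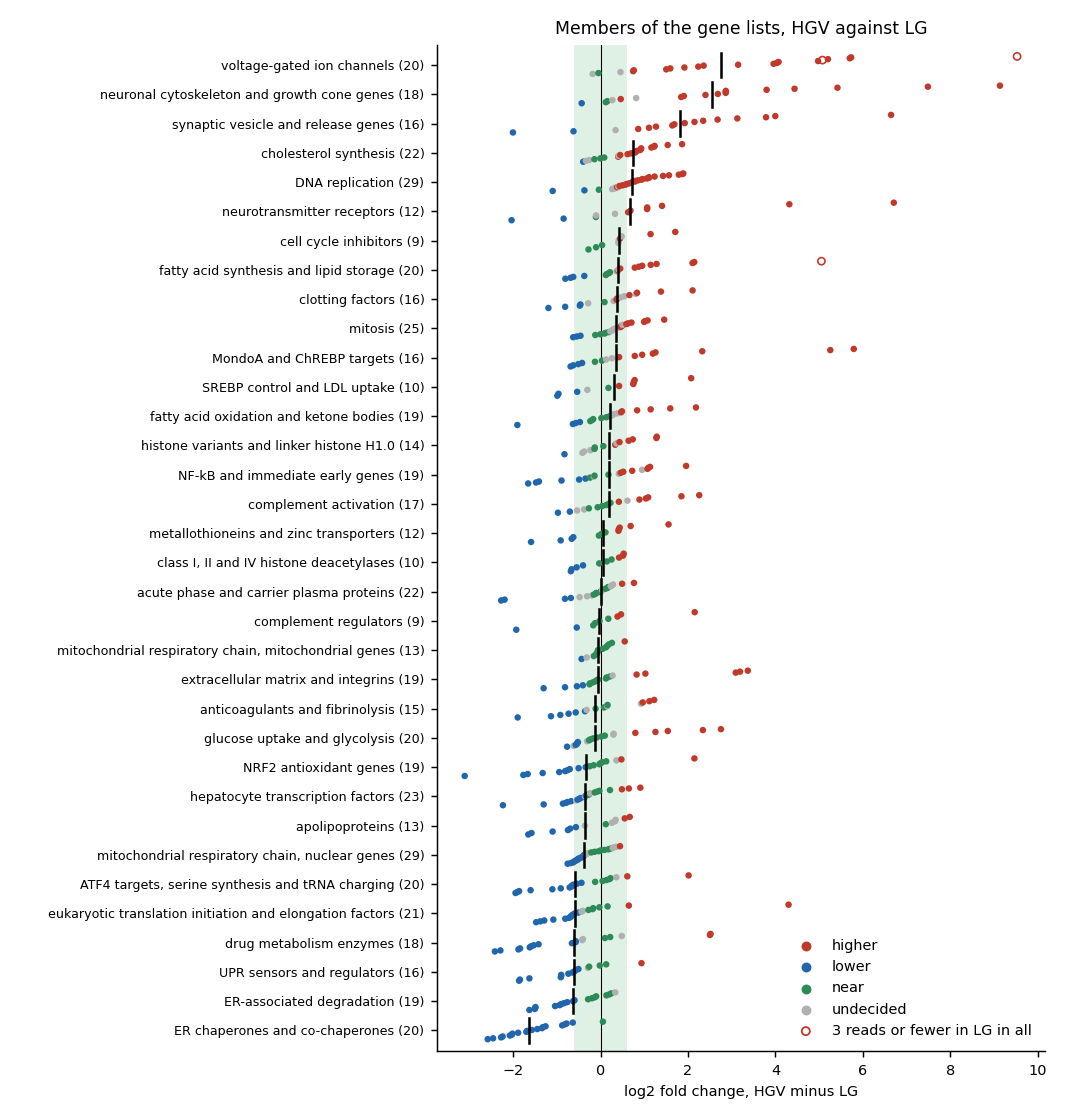
Log2 fold change of HGV against LG (x axis) for the tested members of 34 gene lists (number in brackets), coloured by class, with the list median as a black tick and 1.5-fold either way as a green band; open circles are genes with 3 LG reads or fewer in all, whose fitted value is no bound. Medians ran from -1.63 for ER chaperones to 2.75 for voltage-gated ion channels.

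The place of each gene in HGV was then set beside its change with high glucose alone. HG differed from LG for 3813 of 15452 genes tested (24.7%), with 1854 higher (12%) and 1959 lower (12.7%). Since both comparisons use the same LG libraries, the counts that follow are a description with no test. Of the 1838 genes higher in HG that were also tested here, 201 (10.9%) were near LG in HGV, 1170 (63.7%) were still above it, 91 (4.95%) were below it and 376 (20.5%) were undecided. Of the 1959 lower in HG, 339 (17.3%) were near LG, 1311 (66.9%) were still below it, 89 (4.54%) were above it and 220 (11.2%) were undecided. These counts moved when an LG library was left out of both comparisons, which also changed the genes called in HG. The counts without a library are therefore not shares of the 1838 and 1959 genes. Without LG replicate 1 the near, same side and other side counts were 77, 609 and 36 (higher) and 99, 654 and 30 (lower). Without LG replicate 2 they were 146, 798 and 61, and 190, 854 and 62, and without LG replicate 3 they were 271, 1788 and 98, and 388, 1768 and 117.

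Genes that were higher in HG and near LG in HGV were led by FGL1, a hepatocyte-secreted fibrinogen-like protein. It had 222, 266 and 291 CPM in LG, 723, 569 and 671 CPM in HG and 302, 324 and 230 CPM in HGV, with 0.14 against LG in HGV and 1.35 in HG. HGV and LG overlapped, and all HG libraries lay above both. FGL1 was no longer near without HGV replicate 3 (0.28) and was higher with library sizes alone (0.37). IGF2-AS, CFB and DAK followed, with log2 fold changes of -0.03 to 0.22 in HGV. IGF2-AS was no longer near when any library was left out, nor with library sizes alone (0.20). DAK was not near without LG replicate 3 (0.24) or with library sizes alone (0.25), and the losses of CFB are given above. Exons of IGF2-AS overlap those of IGF2 on the other strand, where strand use in the counting was not given. IGF2, the fetal growth factor, was itself higher in HGV (0.63, and 1.11 in HG), with overlap to INS-IGF2 on the same strand.

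HKDC1, a member of the hexokinase family, was the counterpart among genes lower in HG. It had 58.8, 35.7 and 31.2 CPM in LG, 14.3, 14.9 and 15.4 CPM in HG and 42.4, 42.4 and 41.8 CPM in HGV, at 0.02 against LG in HGV and -1.47 in HG. Its LGV mean of 97.4 CPM lay above all other groups. Without LG replicate 1 it was no longer near (0.34), nor was it with library sizes alone (0.26). HID1, MTMR11, GCNT3 and S100A11 were placed in the same way, with log2 fold changes of -1.23 to -1.42 in HG and -0.10 to 0.11 in HGV. MTMR11 was no longer near when any library was left out, nor with library sizes alone. HID1 and GCNT3 were not near without LG replicate 1 or with library sizes alone, and GCNT3 also not without HGV replicate 3. S100A11 was not near without HGV replicate 1 or 2 or LG replicate 3.

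On the same side of LG as in HG, besides TXNIP and ARRDC4, were the cytokine receptor IL21R (4.32, and 3.12 in HG), CRIP3 (3.34) and the mucin MUC5B (2.58). CRIP3 and ZNF318 have exons in common on 1 strand, where reads cannot be split with certainty. On the low side were LAMP3, a lysosomal membrane protein (-1.37, and -3.76 in HG), KLF4 (-1.41, and -2.75 in HG), MT-TI, SDF2L1 and MANF.

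Genes past LG on the other side were fewer. RRAGD, a GTPase that signals amino acids to mTORC1 (chromosome 6 from 90074335 to 90121992), had 2.77, 2.69 and 1.86 CPM in LG, 0.571, 0.628 and 0.672 CPM in HG and 18.4, 17.4 and 17.9 CPM in HGV. The 3 groups did not overlap, and its log2 fold change against LG was -1.93 in HG and 2.89 in HGV (SE 0.21, FDR 9.12e-11). SLC35E4 (3.20), KCNH2 (4.07), SYPL2 (1.83) and FAM46B (1.46) lay on the same sides of LG by their log2 fold changes. For KCNH2 the HG and LG libraries overlapped, at the low levels given above. In the other direction, FAM20A, a pseudokinase of the secretory pathway, had 39.5, 33.1 and 52.8 CPM in LG, 78.0, 88.1 and 82.8 CPM in HG and 28.9, 23.1 and 21.9 CPM in HGV, or -0.76 in HGV against LG. SLC5A9 (-0.87), PTP4A3 (-0.84), AC079602.1 (-0.76) and RP11-1275H24.1 (-1.14) lay below LG as well, but the calls of AC079602.1 and SLC5A9 were lost without LG replicate 3 and with library sizes alone.

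Among near genes the most abundant were secreted liver proteins and mitochondrial transcripts. ALB had 23856, 25859 and 26166 CPM in LG and 22807, 22881 and 28991 CPM in HGV, a log2 fold change of -0.01 (interval -0.36 to 0.33). MT-CO1, MT-ND4, AHSG (fetuin A), SERPINA1 (alpha-1 antitrypsin), AFP (the fetal albumin relative), TF (transferrin), C3, MT-CO2 and GPC3 (a proteoglycan of liver tumours) made up the rest of the 10 with the highest levels. Their log2 fold changes ran from -0.16 to 0.18, and with library sizes alone TF, C3 and MT-CO1 of these 10 were higher and the others stayed near. Protein-coding genes were near in 24.4% of 13104 cases, higher in 29.7% and lower in 26.5%. Of 1713 lncRNA genes 26.0% were higher and 14.7% lower, and of 525 processed pseudogenes 6.29% were higher and 13.5% lower.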

How the data were processed

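Counts came from 12 libraries, of which the 3 HGV and 3 LG libraries were compared. Per the labels and the study's methods, the authors trimmed 50 nt reads with the FASTX toolkit, used STAR to map them to GRCh37 and featureCounts to count reads on Ensembl genes, after bcl2fastq 2.17.1.14 had made the read files. They deposited raw counts without normalization and had left out genes averaging fewer than 10 reads per sample. The strand setting is not given in the sources used here.

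Genes with a mean of at least 10 reads over the compared libraries were fitted in edgeR 4.0.16 (R 4.3.3) with TMM factors (0.8901 to 0.9647 in LG, 1.042 to 1.106 in HGV), the quasi-likelihood F test and Benjamini-Hochberg adjustment over all genes tested. Calls used an FDR of 0.05 or less. Standard errors were taken as the coefficient over the root of F, and 95% intervals used the t quantile at the fit's degrees of freedom. For 22 genes no interval could be had. CPM shown were scaled over the 12 libraries. HG against LG was fitted in the same way. The common biological coefficient of variation was 0.142 in HGV and 0.169 in LG. The 10 most abundant genes took 11.1% to 11.4% of reads in LG and 13.1% to 13.6% in HGV.

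The members and the 34 lists were chosen with earlier results of these data known. Named genes were chosen by rule. The 12 largest changes in each direction came from called genes with at least 1 log2 CPM on average and no overlap between groups. Named besides were the 3 called members of each list with the largest change, its most abundant near member and genes the study names. The 5 leading genes of each end position and the 10 most abundant near genes were named too. Other list members are named as examples after their values were seen. Some genes that meet the rule are not reported here. Listed genes not tested were absent from the table or under the count minimum. A GENCODE annotation of GRCh37 gave gene positions and exon overlaps for the 97.48% of genes matched by identifier, and RefSeq gave promoters. Alternatives were other scalings, filters and tests (DESeq2 1.42.0), a replicate block, 1 fit of all libraries, an FDR of 0.01, other margins of nearness and leaving out each replicate. Tables and plots were made with Python 3.11.15, pandas 2.3.3, numpy 2.4.6 and matplotlib 3.10.9.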

Additional observations from a re-analysis of the deposited data

How the results depend on the processing

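The near count moved with the margin, and the split of calls and the counts of end positions moved with the scaling and with single LG libraries. With library sizes alone 2353 genes were lower and 6004 higher, and 6896 of 8357 calls were shared with the TMM fit. Upper quartile factors gave 2872 lower and 5585 higher. Of genes lower in HG, those still below LG in HGV numbered 718 with library sizes alone and 822 with upper quartile factors. With the near margin at 1.3-fold 717 genes were near, and at 2-fold 8512. At the 2-fold margin 633 genes higher in HG and 928 lower in HG were near in HGV. Leaving out each replicate in turn gave 7203 to 8600 calls and 2427 to 3247 near genes. For genes higher in HG it gave 77 to 271 near, 609 to 1788 on the same side and 36 to 98 on the other side, and for genes lower in HG 99 to 388, 654 to 1768 and 30 to 117. HG against LG was refitted for each scaling, the replicate block and each LG library left out. The genes called in HG changed with it. Deviations of same-numbered libraries correlated at -0.012, -0.0588 and 0.141, and those of other pairs at -0.137 to 0.143. No pairing by replicate number was seen, which 3 libraries per group cannot exclude. The replicate block gave 8200 calls, of which 8086 were shared, with 3209 near genes and 224 genes lower in HG that were near in HGV. At an FDR of 0.01 there were 6615 calls, with 1 fit of all libraries 9130, with the Wald test of DESeq2 8412 and with edgeR's likelihood ratio test 8715. Among named genes called higher or lower no direction reversed. Signs of near genes did turn, as for AFP (-0.12, and 0.12 with library sizes alone). Of the 196 genes named in the text as higher or lower, 22 lost the call in at least 1 setting, 16 of them with library sizes alone and 15 without 1 library. Of 49 named near genes, 26 were no longer near with library sizes alone and 27 without 1 library. The cause of these shifts was not tested. Of the lowest group by HG level 48.4% were undecided. An alternative added after seeing the data kept genes with a mean of at least 10 reads in HG, with 3847 higher and 3908 lower.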
